A study of Mus musculus with 17 samples.

Results

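Type I interferon response genes are the genes that cells switch on when interferon-alpha or interferon-beta binds its receptor. The set described here holds 39 of the 24537 genes listed in the deposited expression tables. The rule names its members as known genes of the pathway and uses no value of these libraries. The members were nevertheless chosen with earlier results of these data known, so their counts beside those of all genes are descriptions. They were found by gene symbol. All 39 had a row in each of the 17 tables.

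The receptor chains Ifnar1 and Ifnar2 act through the kinases Jak1 and Tyk2, which phosphorylate Stat2. Stat2 joins Irf9 in a complex that binds the interferon-stimulated response element, a short DNA motif in the promoters of many of the genes below. Interferon-gamma, encoded by Ifng, is made by T cells and acts through its own receptor on promoters with gamma-activated sites. The 2 programs share many genes, among them Irf1, Gbp2 and Gbp3. In T cells the response is best known from viral infection, and most of its products act on viral RNA or viral entry.

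The study asked how Notch signalling bears on T helper 2 (Th2) cells and their exit from the lymph node in allergic airway inflammation. All 17 libraries are bulk Smart-seq2 RNA-seq libraries, a method for small amounts of RNA, from FACS-purified mouse lymphocytes. In Gata3-YFP reporter mice, called GATIR, with allergen-driven airway inflammation, Th2 cells were sorted from bronchoalveolar lavage (3 libraries, here airway) and from the lung-draining mediastinal node (3 libraries). All of these reporter libraries are titled WT. Below, wild-type refers to the OTII groups. In OTII mice, whose T cells carry 1 transgenic T cell receptor, with the same kind of inflammation, lymph node Th2 cells came from animals labelled OTII (3 libraries, here wild-type) and from animals labelled OTII_Notch1/2-KO (4 libraries). Th2 cells were also grown from naive spleen T cells of both OTII genotypes (2 libraries each), for 7 days. The plates were coated with antibodies to CD3 and CD28; interleukin-4 was added, and interferon-gamma and interleukin-12/23 were blocked with antibodies. No such block is stated for the mice. The labels give neither age nor sex nor the driver of the Notch deletion, and they do not say whether replicates came from separate animals. The series design text calls them biological replicates. Column headers of the lymph node OTII libraries carry number pairs whose meaning is not given, so libraries with the same header number may share an origin. The p-values below measure the spread between these libraries.

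To show what the response element looks like in these genes, 5 promoters are printed, from 250 bases before to 30 bases after the transcription start. They come from RefSeq sequence on GRCm38.p6, the same assembly as the mm10 coordinates of the deposited tables, and 29 of the 39 members matched an entry. Those named only are Ifi27l2a, Mx1, Mx2, Oas2, Rtp4, Usp18, Zbp1, Dhx58, Parp14 and Parp9. Isg15, Ifit1 and Ifitm3 are shown because they hold the motif and moved in different directions below; Irf7 and Oasl2 are shown as induced genes whose window holds no match to these letters. Ifitm3 was chosen for printing after its values were seen. Capitals mark the core GAAANNGAAA of the interferon-stimulated response element on either strand, overlapping matches included, and each sequence reads 5′ to 3′ along the gene.
Isg15 (chr4:156200789-156201068, minus strand): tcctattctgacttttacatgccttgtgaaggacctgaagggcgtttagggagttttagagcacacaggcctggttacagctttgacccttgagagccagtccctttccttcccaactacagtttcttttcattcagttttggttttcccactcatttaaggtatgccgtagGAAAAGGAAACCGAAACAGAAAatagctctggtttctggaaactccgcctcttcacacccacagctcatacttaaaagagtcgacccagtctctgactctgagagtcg
Ifit1 (chr19:34640639-34640918, plus strand): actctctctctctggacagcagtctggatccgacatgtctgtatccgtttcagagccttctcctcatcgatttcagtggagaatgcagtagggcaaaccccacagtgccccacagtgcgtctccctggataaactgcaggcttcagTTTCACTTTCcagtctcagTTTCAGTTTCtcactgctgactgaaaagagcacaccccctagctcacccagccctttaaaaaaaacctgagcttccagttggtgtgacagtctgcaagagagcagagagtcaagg
Ifitm3 (chr7:141010715-141010994, minus strand): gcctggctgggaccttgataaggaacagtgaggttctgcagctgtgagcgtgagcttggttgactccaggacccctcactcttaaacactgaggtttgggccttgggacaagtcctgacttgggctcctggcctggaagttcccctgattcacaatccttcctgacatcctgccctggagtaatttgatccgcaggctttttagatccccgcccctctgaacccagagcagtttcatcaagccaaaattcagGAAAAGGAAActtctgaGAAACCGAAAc
Irf7 (chr7:141266395-141266674, minus strand): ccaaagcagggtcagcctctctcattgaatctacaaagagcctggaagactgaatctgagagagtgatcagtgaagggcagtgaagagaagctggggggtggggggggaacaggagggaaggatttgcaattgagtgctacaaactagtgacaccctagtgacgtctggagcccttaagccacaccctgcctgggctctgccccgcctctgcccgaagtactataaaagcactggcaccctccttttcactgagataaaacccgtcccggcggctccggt
Oasl2 (chr5:114896684-114896963, plus strand): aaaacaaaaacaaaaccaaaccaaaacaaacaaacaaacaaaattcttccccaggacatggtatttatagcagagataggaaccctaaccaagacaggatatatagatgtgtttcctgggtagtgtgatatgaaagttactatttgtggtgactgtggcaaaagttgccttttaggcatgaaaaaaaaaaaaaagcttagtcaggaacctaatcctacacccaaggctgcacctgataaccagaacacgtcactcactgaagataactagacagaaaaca

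Isg15 holds 3 overlapping matches between 78 and 66 bases before the start (first base of each match). Ifit1 has 2 separate ones at 104 and 85 bases before it. In Ifitm3 the 2 matches lie just after the start. Over the full 300-base windows, the response element core was present in 13 of 29 member promoters (44.8%) and in 3.44% of the 32851 promoters counted. These 13 were Stat2, Isg15, Ifit1, Ifit3, Ifih1, Oas1a, Oas3, Rsad2, Bst2, Ddx58, Eif2ak2, Gbp2 and Ifitm3. The core of the gamma-activated site, TTCNNNGAA, was present in 9 of 29 (31%), among them Irf1, Isg20 and Ifitm3, against 8.3% of the promoters counted. In Bst2 and Ifitm3 this core overlapped a response element match. The promoters counted are all entries of the table except those of a chromosome that holds no member, while each member stands for a single entry. A match is a description of the letters in this window, and for 6 of the 29 members the window starts from a transcript start up to 140 bases from that of the deposited tables.

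Each library held between 16.3 and 27.5 megareads on genes, as read back from the deposited RPKM values (reads per kilobase of transcript and megaread of library). Levels below are RPKM divided by 1 scaling factor per library, and are called scaled RPKM. All 10 T cell markers were detected at a scaled RPKM of 1 or more in every library. Of the targeted genes, Notch1 stood at 48.9, 48.5 and 46.2 in the wild-type lymph node libraries and at 10.2, 8.01, 12.6 and 13.0 in the knockout-labelled ones. In culture Notch1 stood at 26.3 and 29.4 against 4.23 and 1.06. Notch2 went against its label in the lymph node, at 8.03, 8.08 and 7.53 in wild-type and 14.97, 14.1, 17.02 and 18.7 in knockout-labelled libraries, and in culture it stood at 7.65 and 7.37 against 7.16 and 6.64. A transcript total does not show which exons were deleted, so it does not check the deletion itself. These groups are therefore called knockout-labelled throughout.

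Members spanned a wide range of levels per length of transcript. Ifi27l2a, a small mitochondrial membrane protein, was the highest member in each of the 6 groups, from a mean of 206 in wild-type culture to 2230 in the airway. Ifi44 was at most 0.8 in any library. The mean over the 39 members of log2(scaled RPKM + 1) was 5.01, 4.92 and 5.49 in the airway libraries and 4.05, 3.47 and 3.29 in the reporter lymph node libraries. It was 3.38, 2.99 and 3.15 in wild-type lymph node, 3.23, 3.33, 3.13 and 3.63 in knockout-labelled lymph node, 3.60 and 3.52 in wild-type culture and 3.51 and 3.43 in knockout-labelled culture. Only the airway libraries stood apart on this measure. Reporter and OTII mice differ in strain and T cell receptor and were not tested against each other.

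**Figure D1:**
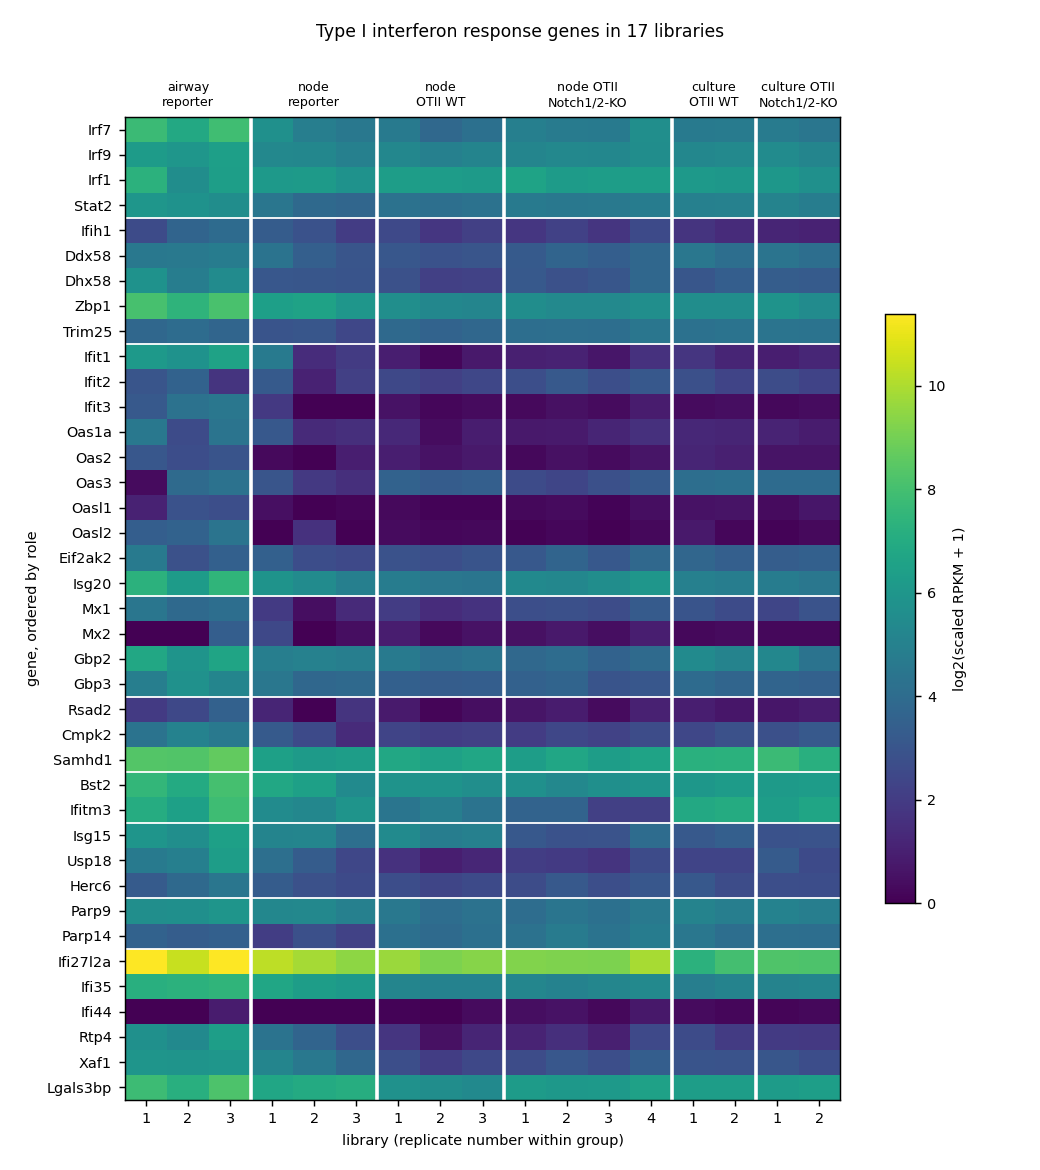
Level of each of the 39 genes (rows, ordered by role, white lines between roles) in each of the 17 libraries (columns, by group), as log2(scaled RPKM + 1) on the colour scale. The 3 airway columns are the brightest for most genes, Ifi27l2a is the brightest row throughout, and Ifi44 is near 0 in all columns.

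Within groups, the members varied together by library. Wild-type lymph node replicate 1 was the highest of its group in 26 of the 28 members at 1 or more in all 3 libraries (92.9%), against 35.5% of the 10253 genes so detected. Knockout-labelled lymph node replicate 4 was the highest in 23 of 30 (76.7%, all genes 18.3%). In the reporter mice, lymph node replicate 1 was the highest in 22 of 31 (71%, all genes 38.1%) and airway replicate 3 in 22 of 36 (61.1%, all genes 27.5%). How much of the spread in the tests below comes from these libraries was not computed. Counts without them are given with the results. What sets them apart was not tested.

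In reporter mice, interferon response genes stood higher in airway Th2 cells than in lymph node Th2 cells. The members that rose include the transcription factors Irf7, Irf9 and Stat2, the sensors Zbp1 and Dhx58, the effectors Ifit1 and Isg20, the GTPase Gbp2 and the nucleotide hydrolase Samhd1, with fitted log2 differences from 0.92 to 3.47. No member fell. Of the 39 members, 37 had a scaled RPKM of 1 or more in at least 3 of the 6 libraries and were tested with limma among 10111 genes. At a Benjamini-Hochberg adjusted p of 0.05, 19 of the 37 rose, where 2.97% of all tested genes rose and 2.3% fell. The median fitted log2 difference was 1.54 over the 37 members and -0.07 over all tested genes. In 30 of the 37 (81.1%) every airway library stood above every lymph node library, which was so for 13.1% of all tested genes. Of the 37, 6 passed the filter only through the airway group (Ifit3, Mx1, Oas2, Oasl1, Oasl2 and Rsad2) and had to differ, so these counts and the p-values of those 6 genes are descriptions; among the 30 members at 1 or more in all 6 libraries, 15 rose.

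Irf7, the factor that amplifies the response, had levels of 214, 115 and 240 in the airway and 51.7, 28.4 and 22.8 in the lymph node. The groups did not overlap, and Irf7 rose by 2.45 ± 0.35 (log2, SE; adjusted p = 0.00741). Stat2 stood at 63.2, 54.3 and 47.1 against 21.2, 13.7 and 12.7, and rose by 1.75 ± 0.28 (adjusted p = 0.00988). Irf9, its DNA-binding partner, stood at 74.4, 63.1 and 84.5 against 38.4, 38.2 and 29.8, and rose by 1.04 ± 0.22 (adjusted p = 0.0275). All 3 airway libraries were above all 3 lymph node libraries for both. Irf1, a factor shared with the interferon-gamma program, overlapped between the groups, at 159, 47.7 and 81.5 against 70.1, 72.7 and 54.3 (0.38 ± 0.38, adjusted p = 0.632).

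Among sensors of foreign nucleic acid, Zbp1, which binds Z-form nucleic acids, stood at 269, 168 and 275 against 84.7, 93.8 and 62.0 and rose by 1.54 ± 0.24 (adjusted p = 0.0088). Dhx58, which encodes LGP2, a partner of RIG-I and MDA5, stood at 55.0, 27.4 and 44.4 against 7.65, 7.36 and 6.72 and rose by 2.34 ± 0.34 (adjusted p = 0.00753). The lymph node libraries were close together for Dhx58 and all lay below the airway. The sensor genes Ddx58 (RIG-I) and Ifih1 (MDA5) and the ubiquitin ligase Trim25 did not pass, with differences of 1.04, 0.68 and 1.03.

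The effectors that act on viral RNA showed the widest differences and the widest spread. Ifit1, which binds RNA lacking host cap marks, stood at 70.9, 54.5 and 94.0 in the airway. In the lymph node it stood at 24.95, 1.72 and 2.91, with replicate 1 far above the others, and the difference was 3.47 ± 0.74 (adjusted p = 0.0298). Its relative Ifit3 stood at 8.09, 18.7 and 22.0 in the airway and at 2.72, 0 and 0 in the lymph node, a rise of 3.37 ± 0.67 (adjusted p = 0.0235). No lymph node library reached the lowest airway library for either gene. Oasl2, of the oligoadenylate synthetase family, stood at 9.68, 10.9 and 19.6 against 0, 2.10 and 0 and rose by 3.24 ± 0.61 (adjusted p = 0.0188). Oas2 and Isg20, an RNA exonuclease, also rose, by 2.50 and 1.61. Ifit2, Oas1a, Oas3 and the kinase gene Eif2ak2 (PKR) overlapped between the groups and did not pass; Oasl1 did not overlap and did not pass (2.03 ± 0.59, adjusted p = 0.0909). Fitted differences of genes near 0 understate the change, since 1 is added before the log.

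Of the GTPases, Mx1 stood at 21.3, 14.04 and 16.2 against 2.85, 0.338 and 1.56 and rose by 2.92 ± 0.53 (adjusted p = 0.0156). Gbp2, induced most by interferon-gamma, stood at 113, 59.5 and 99.5 against 28.2, 30.7 and 28.1 and rose by 1.56 ± 0.26 (adjusted p = 0.0119). Its lymph node libraries lay within a narrow range, all below the airway. Gbp3 differed by 1.2 and did not pass, and Mx2 was not tested; its row stands for a different transcript in the reporter and the OTII tables. Samhd1, which hydrolyses the nucleotides that viruses need, had the smallest p-value of the members. It stood at 326, 314 and 399 against 87.0, 73.9 and 80.1 and rose by 2.09 ± 0.16 (adjusted p = 3.28e-04). The mitochondrial nucleotide kinase gene Cmpk2 rose by 2.28, and Rsad2 (viperin) differed by 1.70 without passing.

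Ifitm3, which blocks viral entry at membranes, stood at 130, 88.4 and 229 against 44.8, 38.2 and 57.9 and rose by 1.55 ± 0.33 (adjusted p = 0.0294). Bst2 (tetherin), which holds virions at the cell surface, stood at 186, 125 and 259 against 114, 86.9 and 42.2. Its groups did not overlap, and it did not pass (1.27 ± 0.38, adjusted p = 0.0954). The same was so of Isg15, the ubiquitin-like modifier, at 60.6, 48.6 and 88.9 against 34.0, 35.7 and 17 (1.19 ± 0.34, adjusted p = 0.0861). Usp18, which removes Isg15 from proteins and damps receptor signalling, stood at 23.9, 29.3 and 81.2 against 16.98, 8.83 and 4.33 (2.01 ± 0.56, adjusted p = 0.0801). None of the 3 genes of the Isg15 system passed, nor did Parp9 and Parp14 of the ADP-ribosylation enzymes. Ifi27l2a stood at 2629, 1373 and 2687 against 1241, 916 and 708 and rose by 1.2 ± 0.28 (adjusted p = 0.0409). Rtp4, a receptor transport protein gene, stood at 51.4, 41.8 and 82.0 against 19.1, 11.6 and 5.74 and rose by 2.25 ± 0.43 (adjusted p = 0.0198). Xaf1 and Ifi35 rose by 1.42 and 0.92, and Lgals3bp did not pass at 0.80.

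**Figure D2:**
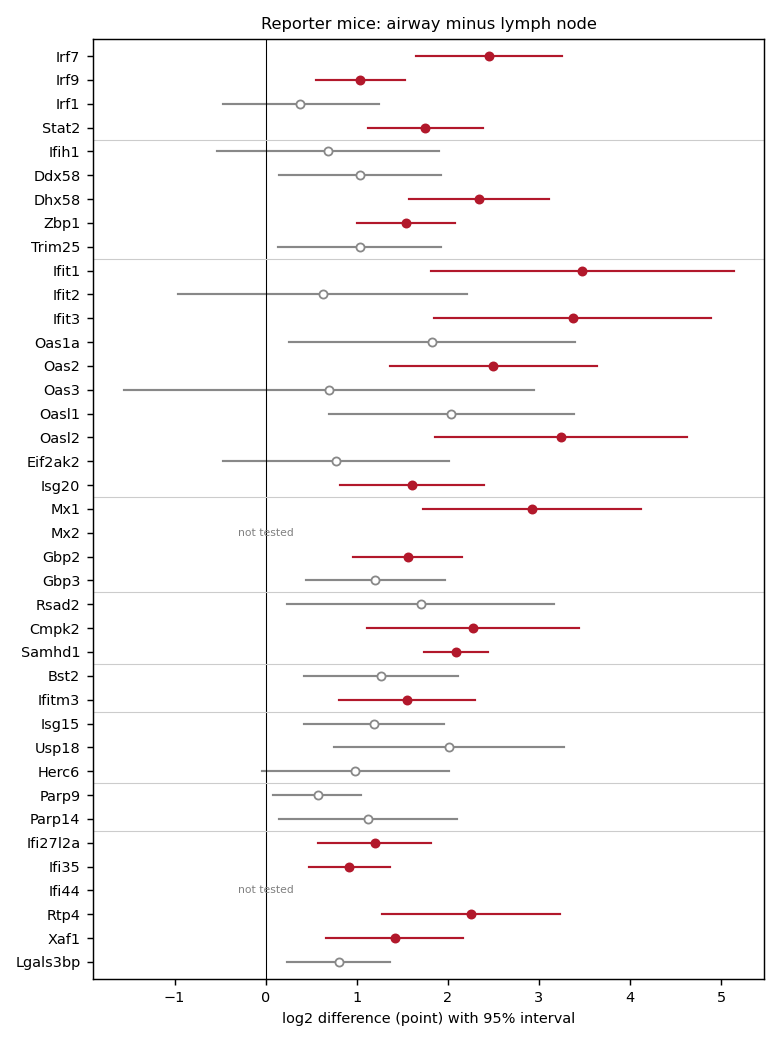
Fitted difference of each member between airway and lymph node Th2 cells of reporter mice (log2 of scaled RPKM + 1), as points with 95% intervals; filled red points passed an adjusted p of 0.05, open grey points did not, and grey lines part the roles. All tested points lie right of 0, from 0.38 for Irf1 to 3.47 for Ifit1.

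The airway libraries also carried transcripts of other cells. The summed level of 14 macrophage markers was 3480 to 7990 in the airway, with 11 to 14 of them detected at 1 or more, and 79.9 to 125 in the reporter lymph node, with 2 or 3 detected. Mrc1, Marco, Adgre1, Itgax, Mertk, Krt79, Car4 and Lpl were at 0 in all 3 lymph node libraries. The summed T cell markers were 4840 to 5620 in the airway and 4070 to 4490 in the lymph node. Macrophages express many of the members; their part in the airway difference was not tested. In a bulk library fewer cells of a type and less RNA per cell cannot be told apart. In airway replicates 1, 2 and 3 the macrophage sums were 3483, 7990 and 3581, beside mean member levels of 5.01, 4.92 and 5.49. Other marker lists moved too. The 6 dendritic cell markers summed to 14.5 to 32.9 in the airway (1 to 3 detected) and 2.19 to 4.07 in the lymph node (1 detected), with Zbtb46 and Clec9a at 0 in all 3 airway libraries. The 5 plasmacytoid dendritic cell markers summed to 0 to 7.27 in the airway (0 to 2 detected) and 3.33 to 7.99 in the lymph node (1 detected), with Siglech and Klk1 at 0 in all 6. Eosinophil markers summed to 54.3 to 68.5 (2 to 4 of 6 detected) against 6.65 to 16.5 (1 detected). Neutrophil markers summed to 4.96 to 17.1 (1 to 3 of 8) against 0 to 1.15 (0 to 1). Epithelial markers summed to 10.8 to 90.2 (1 to 3 of 8) against 0.241 to 9.27 (0 to 1). Basophil markers went the other way, at 148 to 276 in the airway and 554 to 880 in the lymph node. Only 2 of these 7 were detected in the airway and 2 to 3 in the lymph node. B cell markers overlapped, at 5.7 to 43.6 against 35.4 to 58.9. NK and CD8 cell markers overlapped too, at 8.43 to 14.2 against 6.78 to 16.6. The part of these cells in the member levels was not tested.

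**Figure D3:**
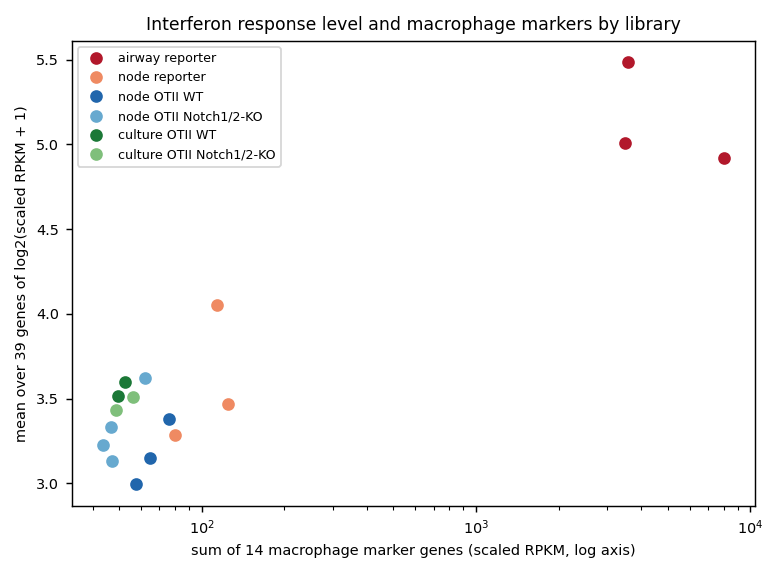
Mean over the 39 genes of log2(scaled RPKM + 1) (vertical axis) against the summed scaled RPKM of 14 macrophage markers (horizontal log axis), 1 point per library, coloured by group. The 3 airway libraries stand apart from the other 14 on both axes, with sums of 3483 to 7990 and mean levels of 4.92 to 5.49.

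The number of members that rose in the airway depended on single libraries. It was 7 without airway replicate 3, and 12, 7 and 4 without lymph node replicates 1, 2 and 3. Calls over all genes in either direction were 533 with all libraries, 502 without airway replicate 3, and 198, 194 and 162 without the lymph node ones, so the drop with the lymph node libraries was general. Samhd1 and Dhx58 were the members that passed in each alternative tried, and none of the 19 changed direction in any of them.

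In the lymph node, members differed between the Notch genotypes in both directions. Isg15 was lower in knockout-labelled Th2 cells, with Ifitm3, Gbp2 and Oas3 also lower, while Mx1, Isg20, Lgals3bp, Usp18, Ifit2, Ddx58, Trim25 and Stat2 were higher. The filter left 31 members among 10869 tested genes. Of these 8 rose, where 10.4% of all tested genes rose, and 4 fell, where 7.68% fell. The median fitted difference was 0.23 over the 31 members and 0.02 over all tested genes. Rtp4 and Usp18 passed the filter only through the knockout-labelled group; of the 28 members at 1 or more in all 7 libraries, 7 rose and 4 fell.

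Isg15 stood at 42.1, 27.5 and 29.8 in wild-type libraries and at 7.74, 6.23, 6.48 and 15.5 in knockout-labelled ones. Every knockout-labelled library lay below every wild-type one, and Isg15 fell by 1.84 ± 0.28 (log2, SE; adjusted p = 0.0027), to 0.271 of the wild-type mean. It kept the call in all 14 alternatives, with differences from -2.11 to -1.66. Usp18, its protease, stood at 2.11, 0.931 and 1.34 against 3.26, 2.87, 2.30 and 5.13 and rose by 0.82 ± 0.23 (adjusted p = 0.037). It passed the filter only through the group in which it was high, and it lost the call in 6 of 14 alternatives (adjusted p from 0.03 to 0.155). Herc6, the ligase that attaches Isg15 in mice, overlapped between the groups (0.36 ± 0.15, adjusted p = 0.137). Isg15 lies on chromosome 4 (mm10, 156199424 to 156200818, minus strand).

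Ifitm3 stood at 20.7, 27.9 and 19.0 in wild-type and at 11.5, 11.4, 3.41 and 3.46 in knockout-labelled libraries. It fell by 1.65 ± 0.40 (adjusted p = 0.0219), with knockout-labelled replicates 3 and 4 well below 1 and 2. Bst2, the other membrane factor, overlapped, at 57.4, 56.2 and 48.4 against 50.9, 39.1, 50.3 and 56.7 (-0.14 ± 0.13, adjusted p = 0.492). Gbp2 stood at 24.2, 17.5 and 20.1 against 13.5, 15.4, 11.1 and 14.4 and fell by 0.56 ± 0.14 (adjusted p = 0.0215). The GTPase gene Mx1, in contrast, stood at 3.11, 1.73 and 2.14 against 5.60, 5.93, 5.23 and 8.58 and rose by 1.14 ± 0.18 (adjusted p = 0.00357). No library of 1 group fell within the range of the other for Ifitm3, Gbp2 or Mx1.

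Among the RNA-directed effectors, Isg20 stood at 26.4, 22.1 and 20.7 against 41.7, 38.01, 46.3 and 62.2 and rose by 0.98 ± 0.16 (adjusted p = 0.00389). Ifit2 stood at 4.499, 3.42 and 4.42 against 5.59, 8.12, 5.72 and 7.84 and rose by 0.60 ± 0.15 (adjusted p = 0.0252). Oas3 moved the opposite way, at 11, 8.94 and 9.77 against 4.99, 4.21, 5.93 and 8.37, and fell by 0.70 ± 0.18 (adjusted p = 0.0308). The groups did not overlap for these 3 genes. Ifit1 was near or below 1 in both groups, at 0.932, 0.142 and 0.716 against 0.979, 1.15, 0.616 and 2.05, and was not tested. Ifit3 was at most 0.799 and Oasl2 at most 0.279 in any of the 7 libraries. The other members not tested were Ifi44, Mx2, Oas2, Oasl1 and Rsad2.

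Of the response's own transcription factors, 1 of 4 passed. Stat2 stood at 18.7, 17.1 and 18.5 against 24.0, 22.3, 23.1 and 26.4 and rose by 0.38 ± 0.08 (adjusted p = 0.0143). Irf7 stood at 23.7, 13.5 and 17.3 against 29.1, 25.9, 24.8 and 48.3; the groups did not overlap, and it did not pass (0.77 ± 0.25, adjusted p = 0.0613). Irf9 stood at 38.02, 30.3 and 34.8 against 35.9, 38.8, 37.3 and 47.0 (0.20 ± 0.11, adjusted p = 0.261). Irf1 stood at 78.9, 77.7 and 73.4 against 95.2, 76.4, 79.9 and 80.9 (0.11 ± 0.09, adjusted p = 0.435). Both overlapped between the groups. Of the sensors, Ddx58 stood at 7.43, 6.33 and 7.13 against 8.33, 11.6, 9.64 and 12.9 and rose by 0.53 ± 0.14 (adjusted p = 0.0308). Trim25, which ubiquitinates RIG-I, stood at 14.04, 11.4 and 13.2 against 16.3, 17.04, 16.6 and 21.5 and rose by 0.44 ± 0.12 (adjusted p = 0.0311). Zbp1 overlapped, at 48.3, 38.2 and 35.6 against 46.5, 39.8, 40.3 and 48.3 (0.11 ± 0.12).

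Of the remaining members, Lgals3bp, a secreted galectin-binding glycoprotein, stood at 52.8, 46.4 and 41.6 against 76.4, 66.97, 71.6 and 90.8 and rose by 0.69 ± 0.12 (adjusted p = 0.00511). Ifi27l2a stood at 819, 565 and 637 against 607, 584, 570 and 962; knockout-labelled replicate 4 was far above the other 3, and the groups overlapped (adjusted p = 0.993). All 4 members that fell have a response element match in their promoter, and all 4 have an entry in the promoter table. Of the 8 that rose, Stat2 and Ddx58 have a match, Isg20, Ifit2, Trim25 and Lgals3bp have none, and Mx1 and Usp18 had no entry. Whether this split differs from that of other genes was not tested.

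**Figure D4:**
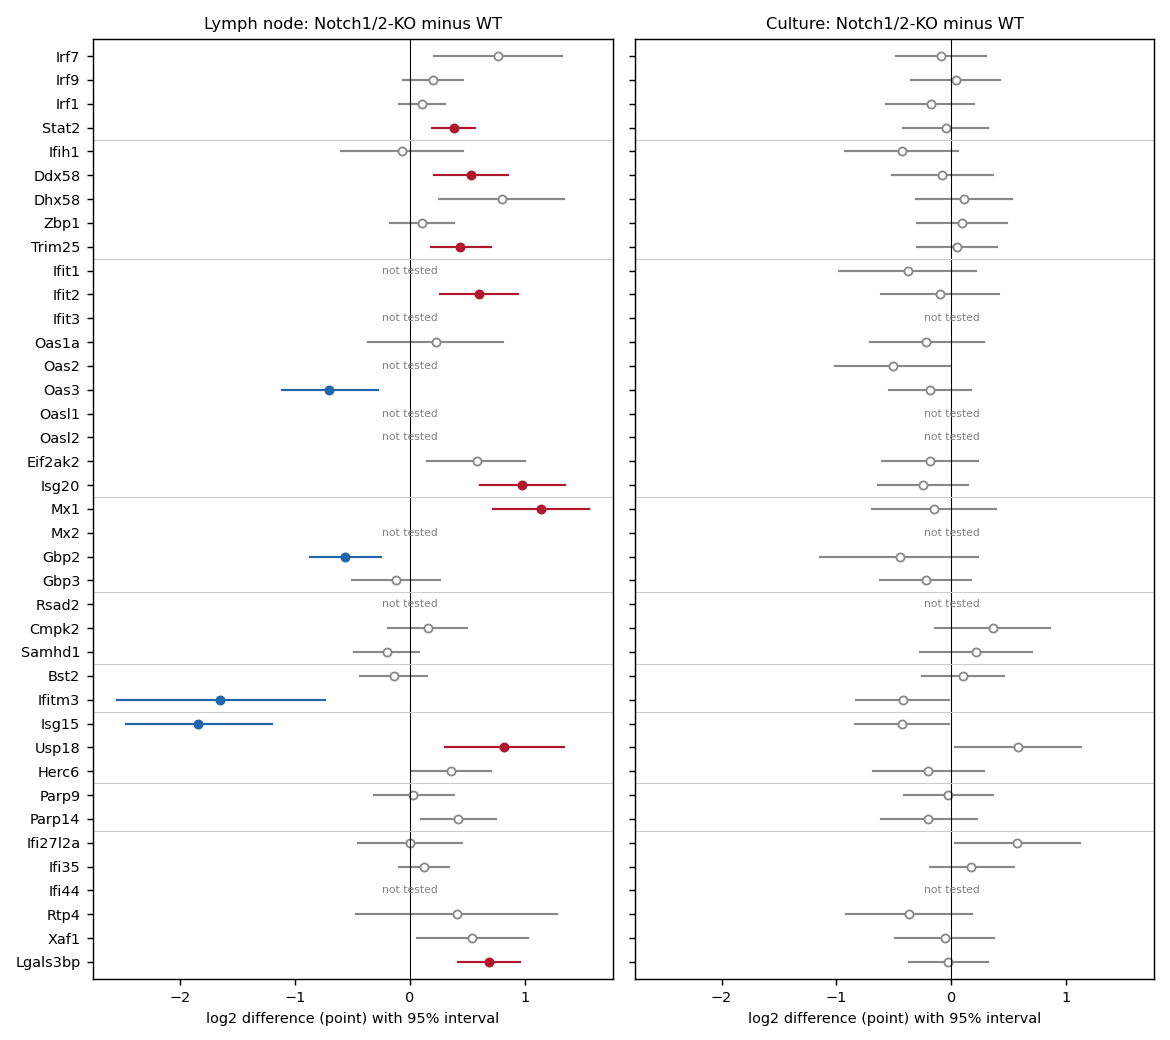
Fitted difference of each member between knockout-labelled and wild-type OTII Th2 cells in the lymph node (left) and in culture (right), as log2 points with 95% intervals. Filled red and blue points passed an adjusted p of 0.05 as higher and lower, open points did not: 8 red and 4 blue points stand on the left and none on the right.

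Single libraries weighed on these counts too. Without wild-type replicates 1, 2 and 3, the members that rose numbered 7, 3 and 3 and those that fell 1, 2 and 1. Without knockout-labelled replicate 4, 4 rose and 3 fell. Isg15, Mx1, Isg20 and Lgals3bp passed in each alternative tried. Summed macrophage markers were 57.5 to 76.1 in wild-type and 43.5 to 62.2 in knockout-labelled libraries; their part in these differences was not tested.

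The airway and the knockout comparison share no library, and 5 members were called in both. Among the 31 members tested in each, these were 33.3% of the 15 called in the airway and 41.7% of the 12 called in the knockout comparison. Over the 9644 genes tested in each, 144 were called in both, which is 31.7% of the airway calls and 8.69% of the knockout calls. Airway calls made up 15 of the 31 members but 454 of the 9644 genes. The 41.7% and 8.69% therefore start from unlike base rates, and whether members overlap beyond theirs was not tested. Stat2, Isg20 and Mx1 rose in each. Gbp2 and Ifitm3 rose in the airway and fell in knockout-labelled cells. Never called in any of the 6 comparisons were Ifi44, Mx2, Oas1a, Oasl1, Rsad2, Parp14 and Herc6. Of these, Ifi44 and Mx2 were not tested in any comparison, and Oasl1 and Rsad2 were tested in the airway comparison only.

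In culture, with interferon-gamma blocked, no member passed between the genotypes. Of 10968 genes tested with limma, 0% rose and 0% fell, the 33 members tested included. The targeted gene Notch1, at 26.3 and 29.4 against 4.23 and 1.06, was not called either. With limma voom on the reads, 2 of all genes and 0 members were called. With 2 libraries a group, the lack of a call does not show that a member was unchanged. At an unadjusted p of 0.05, 2 of the 33 were higher (Usp18 and Ifi27l2a) and 3 lower (Isg15, Ifitm3 and Oas2), where 0.976% and 1.36% of all tested genes were. Ifit1, Oas1a and Oas2 passed the filter only through wild-type culture. The place of Oas2 among the lower members is therefore a description.

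Isg15 stood at 7.99 and 10.02 in wild-type and 6.31 and 6.47 in knockout-labelled culture (-0.43, 95% interval -0.84 to -0.02). Ifitm3 stood at 118 and 127 against 80.3 and 103 (-0.42, -0.83 to -0.02), and Gbp2 at 43.0 and 32.8 against 38.1 and 19.3 (-0.45, -1.14 to 0.23). The Isg15 and Ifitm3 groups did not overlap, at small differences. Neither did those of Usp18 and Ifi27l2a, which were higher in knockout-labelled culture. Among the members, knockout-labelled cultures lay all above wild-type ones in 3, all below in 9, and overlapped with them in 27. With so few libraries a group, groups often part by chance, so a lack of overlap does not show a change here. The share over all genes was not counted. Mx1 stood at 6.83 and 5.16 against 4.18 and 6.55 (-0.15, -0.69 to 0.39), Usp18 at 4.02 and 4.09 against 8.54 and 4.98, and Ifi27l2a at 157 and 256 against 301 and 295. Irf7 stood at 23.8 and 25.8 against 25.8 and 20.9, Stat2 at 30.5 and 31.6 against 32.7 and 27.4, Irf9 at 38.2 and 39.6 against 44.8 and 35.6, and Irf1 at 67.8 and 64.9 against 65.2 and 52.1. These 4 factors overlapped between the groups. Zbp1 stood at 47.5 and 46.8 against 56.9 and 44.3 and Bst2 at 64.4 and 75.2 against 73.0 and 76.6, both overlapping. Ifit1 was at 2.40 and 1.24 against 0.940 and 1.30, and Ifit3 and Oasl2 were below 1 in all 4 libraries.

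A test of the difference between the lymph node and culture effects used 1 fit of the 11 OTII libraries over 11508 genes. Isg20 was the only member of 33 to pass: its effect was higher in the lymph node by 1.23 ± 0.26 (adjusted p = 0.0255), where 2.35% of all tested genes passed as higher and 1.49% as lower. Its culture values were 30.4 and 27.4 in wild-type and 26.8 and 21.7 in knockout-labelled libraries. Mx1 (1.29 ± 0.33, adjusted p = 0.0568), Lgals3bp (0.72 ± 0.18, adjusted p = 0.0607) and Isg15 (-1.41 ± 0.43, adjusted p = 0.105) did not pass. For Isg15 the difference passed in 2 of 16 alternatives, at -1.68 each time: with the replicate number as a block (adjusted p = 0.0162) and without knockout-labelled lymph node replicate 4 (adjusted p = 0.00812). Over all 16 its adjusted p ran from 0.00812 to 0.314. Without wild-type lymph node replicate 1, 3 members passed as higher. Isg20 lost its call without wild-type lymph node replicate 2 or 3, without wild-type culture replicate 1 and without knockout-labelled culture replicate 2.

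**Figure D5:**
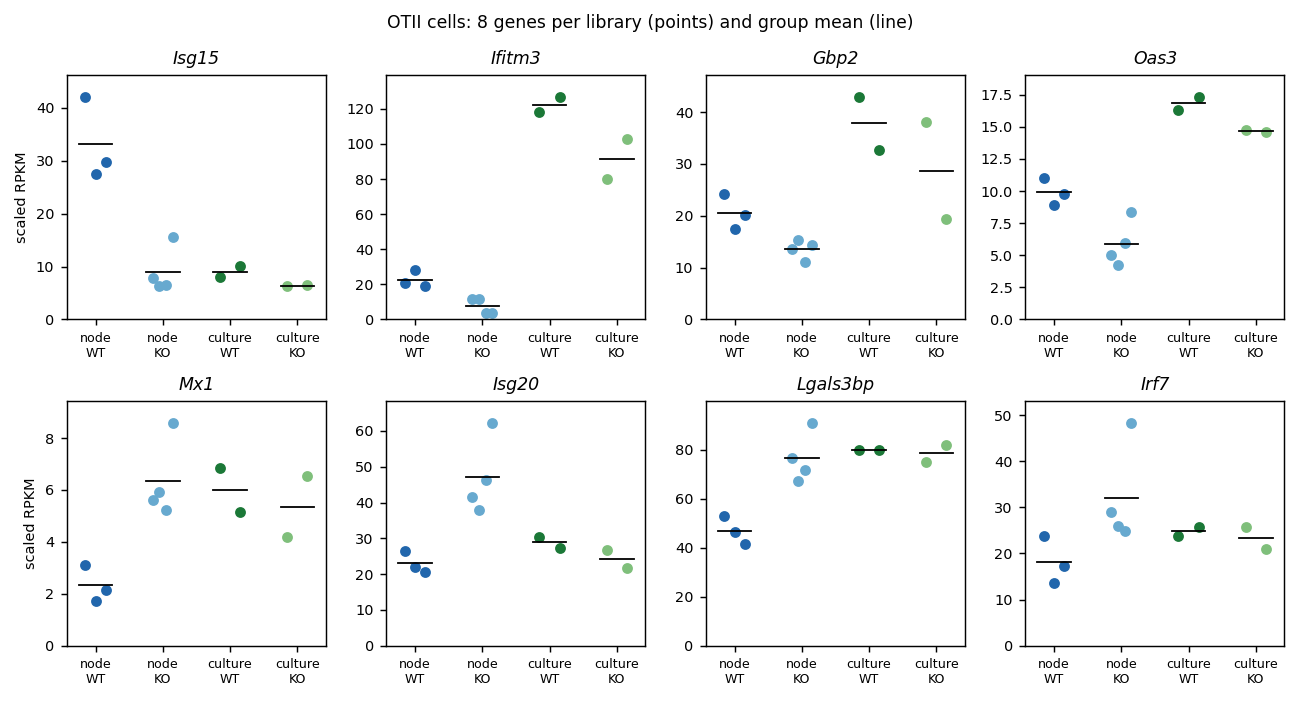
Scaled RPKM of 8 members in the 11 OTII libraries (points) with group means (lines); each panel starts at 0. Isg15, Ifitm3, Gbp2 and Oas3 were lower in knockout-labelled lymph node libraries and Mx1, Isg20 and Lgals3bp higher; Isg15 in knockout-labelled lymph node (6.23 to 15.5) lies near the culture range (6.31 to 10.02), and Ifitm3 is highest in culture.

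Wild-type Th2 cells from the lymph node held less of many members than wild-type cultured Th2 cells. Ifitm3, Ddx58, Stat2, Lgals3bp, Oas3, Mx1, Usp18, Eif2ak2 and Gbp2 were lower in the lymph node, while Isg15 and Ifi27l2a were higher. Of 33 members tested among 11108 genes, 2 rose (all genes 13.5%) and 15 fell (all genes 17.5%). The median fitted difference was -0.46 over the 33 members and -0.03 over all tested genes. Ifit1, Oas1a and Oas2 passed the filter only through culture; of the 28 members at 1 or more in all 5 libraries, 2 rose and 13 fell. Without wild-type lymph node replicate 1 the counts were also 2 and 15. The lymph node libraries are those of the knockout comparison, so the results are not independent of it.

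From the values above, Ifitm3 fell by 2.41 ± 0.16 (log2, SE; adjusted p = 6.81e-05), the smallest p-value of the members. Isg15 rose by 1.75 ± 0.19 (adjusted p = 5.53e-04) and Ifi27l2a by 1.73 ± 0.23 (adjusted p = 0.00142). Both lay higher in every lymph node library than in either culture. Ddx58, at 21.8 and 16.5 in wild-type culture, fell by 1.33 ± 0.15 (adjusted p = 5.91e-04), and Stat2 by 0.75 ± 0.10 (adjusted p = 0.00156). Mx1 fell by 1.08 ± 0.20 (adjusted p = 0.00682) and Usp18 by 1.07 ± 0.21 (adjusted p = 0.00792). Lgals3bp, at 79.9 and 79.6 in culture, fell by 0.76 ± 0.12, and Oas3, at 16.3 and 17.3, fell by 0.71 ± 0.12. Eif2ak2 stood at 6.40, 5.68 and 6.74 in the lymph node and at 12.7 and 9.82 in culture, and fell by 0.75 ± 0.15. Gbp2 fell by 0.85 ± 0.17. All of these lay below both cultures in every lymph node library. Irf7 (-0.46), Irf9 (-0.18), Irf1 (0.20), Bst2 (-0.36) and Zbp1 (-0.22) did not pass. The remaining calls, all lower, were Samhd1, Parp9, Trim25, Dhx58, Gbp3 and Rtp4, from -0.42 for Gbp3 to -1.13 for Rtp4.

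The same comparison in knockout-labelled cells shares its libraries with the genotype comparisons. Of 32 members tested among 11227 genes, 4 rose (all genes 13.7%) and 8 fell (all genes 15.3%), with a median of -0.03 over the members and -0.02 over all tested genes. Ifitm3 fell by 3.63 ± 0.47 (adjusted p = 8.63e-04), to 0.0812 of the culture mean, and Oas3, at 14.8 and 14.6 in culture, fell by 1.22 ± 0.22 (adjusted p = 0.00408). Samhd1 stood at 80.5, 107, 79.7 and 96.1 in the lymph node and at 217 and 144 in culture and fell by 0.97 ± 0.19 (adjusted p = 0.006). The lymph node libraries were all below both cultures for these genes.

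Bst2 fell by 0.61 ± 0.15 (adjusted p = 0.0163), Ddx58, at 19.8 and 16.1 in culture, by 0.72 ± 0.18 (adjusted p = 0.0177), Gbp2 by 0.96 ± 0.24 (adjusted p = 0.0205) and Cmpk2 by 0.64 ± 0.20 (adjusted p = 0.0406). Parp9 stood at 15.9, 20.6, 17.7 and 23.2 in the lymph node and 32.1 and 28.1 in culture and fell by 0.62 ± 0.16 (adjusted p = 0.0187). Ifi27l2a rose by 1.15 ± 0.21 (adjusted p = 0.00487), Isg20 by 0.91 ± 0.19 (adjusted p = 0.00907) and Irf1 by 0.50 ± 0.13 (adjusted p = 0.0231). Ifih1, the MDA5 gene, stood at 2.45, 3.66, 2.34 and 4.93 against 1.24 and 1.14 and rose by 0.95 ± 0.24 (adjusted p = 0.0188). Isg15 did not pass here (0.35 ± 0.31, adjusted p = 0.443), nor did Mx1 (0.21 ± 0.22), Stat2 (-0.31 ± 0.12), Usp18 (-0.82 ± 0.27) or Irf7 (0.39 ± 0.25). Irf9 (-0.01), Zbp1 (-0.20) and Ifit1 (0.02) did not pass either. Without knockout-labelled culture replicate 1, 2 members fell; without replicate 2, 4 fell and 1 rose. Without knockout-labelled lymph node replicate 4, 10 fell and 3 rose. Culture and lymph node differ in tissue, stimulus, time and the interferon-gamma block at once, and these cannot be told apart.

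The genes around the members were described from lists chosen by function. Their counts stand beside the shares of all tested genes given above: 2.97% higher in the airway, and 10.4% higher and 7.68% lower in knockout-labelled lymph node cells. Some list genes passed a filter only through the group in which they were high and had to differ, so these counts are descriptions. Of 20 interferon genes only Ifng passed a filter in any comparison, and Ifnb1 was at 0 in all 17 libraries. Ifng stood at 6.71, 4.54 and 3.90 in wild-type and 13.9, 14.1, 8.31 and 9.52 in knockout-labelled lymph node libraries and rose by 1.04 ± 0.21 (adjusted p = 0.0105). In culture it was at 1.55 and 0.659 against 0.385 and 0.383, and its knockout effect was higher in the lymph node by 1.61 ± 0.37 (adjusted p = 0.037). In reporter mice Ifng overlapped, at 0, 5.64 and 7.31 in the airway against 10.1, 4.63 and 3.80. Ifng rose in the knockout-labelled lymph node libraries, in which Gbp2 fell.

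The interferon-gamma GTPases (Gbp, Irgm and related genes) rose in 6 of 13 tested in the airway and 7 of 13 in knockout-labelled lymph node cells, with none lower in either. Their medians were 1.37 and 0.53. In the knockout comparison Gbp6 rose by 1.11 ± 0.16, Gbp8 by 0.67 ± 0.11, Irgm1 by 0.81 ± 0.15 and Igtp by 0.54 ± 0.12; in the airway Igtp rose by 1.84, Gbp6 by 2.74, Gbp4 by 1.40 and Tgtp2 by 2.21. In wild-type cells 13 of 15 were lower in the lymph node than in culture, among them Gbp11 (-3.48), where 17.5% of all tested genes were lower. Gbp11 stood at 0.263, 0.138 and 0.273 in the lymph node and at 13.55 and 11.74 in culture. Both Gbp11 and Gvin1 passed the filter only through culture. In knockout-labelled cells 6 of 15 were lower (all genes 15.3%). By the test of the difference, the knockout effect was higher in the lymph node than in culture for Gbp6 (1.53), Gbp8 (1.11) and Irgm1 (1.13).

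Further interferon-induced genes outside the 39 rose in 17 of 42 tested in knockout-labelled lymph node cells, and 1 fell. Slfn8 rose by 1.22, Trim14 by 0.72 and Parp11 by 0.66. The gene that fell was Ifitm2, a neighbour of Ifitm3 in function and name, at 36.5, 63.7 and 37.3 against 16.1, 13.6, 11.6 and 9.37 (-1.75 ± 0.22, adjusted p = 0.00102). In the airway 7 of 43 rose and none fell, with Slfn1 at 2.35, Slfn2 at 1.36, Ly6a at 1.41 and Ifit1bl1 at 4.03. Of these genes, Ifit1bl1 passed the filter only through the airway group. Ifitm1, Ifitm2 and Ifitm3 were all higher in culture: Ifitm1 stood at 493 and 380 in wild-type culture and at 0.732, 5.29 and 4.87 in wild-type lymph node (-6.76 ± 0.51, adjusted p = 1.08e-04). Against culture, 1 of 43 of these genes rose and 12 fell in wild-type lymph node cells (all genes 13.5% and 17.5%). In knockout-labelled cells 11 of 43 rose and 5 fell (all genes 13.7% and 15.3%).

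Among receptor and signalling genes, 3 of 10 tested rose in knockout-labelled lymph node cells and 2 of 10 in the airway. Ifnar1 stood at 17.4, 16.9 and 19.2 in wild-type and 20.6, 21.8, 21.4 and 23.6 in knockout-labelled lymph node libraries and rose by 0.28 ± 0.08 (adjusted p = 0.0484); Ifnar2 did not pass (0.47, adjusted p = 0.0579). Il10rb, a receptor chain shared with interleukin-10 and interferon-lambda, rose by 0.66 and Tyk2 by 0.36 in the same comparison. In the airway Ifngr1 rose by 2.50 ± 0.15 (adjusted p = 1.12e-04) and Stat3 by 1.02, while Ifnar1 (0.71) and Ifnar2 (1.01) did not pass. Of the inhibitors of cytokine signalling, Socs3 fell by 1.02 ± 0.19 in knockout-labelled lymph node cells and rose by 1.19 in the airway. Socs1 did not pass in either, and was far higher in culture, at 77.4 and 109 in wild-type and 153 and 110 in knockout-labelled libraries against 10.6 to 24.8 in the OTII lymph node. For antigen processing, 4 of 12 rose in knockout-labelled lymph node cells, led by Nlrc5 (0.85 ± 0.08, adjusted p = 2.71e-04) and B2m (0.58), and 3 of 12 rose in the airway (H2-K1, H2-D1 and Tapbp). None of these lists had a call in the culture comparison of genotypes, in which 0 of all 10968 tested genes were called.

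Ifit1 and Ifit1bl1, Ifit3 and Ifit3b, the Oas1 genes and Ifi27l2a with its relatives are related genes, and their sequences were not compared here. How the authors' counting shared reads between similar genes is not given in the sources used here. How far their separate values hold is therefore uncertain.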

How the data were processed

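The 17 libraries were deposited as RPKM (reads per kilobase of transcript and megaread of library) per gene. Per the submitters' processing notes the authors used HISAT2 2.0.4, HOMER and DESeq2 with mm10; which tool made the RPKM values is not given in the sources used here. RPKM were divided by a median-of-ratios factor per library, computed over the 6796 genes at 1 or more in all 17 libraries. Levels were tested as log2(scaled RPKM + 1) with limma 3.58.1 (R 4.3.3, empirical Bayes with trend, two-sided), within each comparison's own groups, without a replicate block. Fold changes on this scale understate the change of low genes. The filter kept genes at a scaled RPKM of 1 or more in a number of libraries no smaller than the smaller of the groups compared, and p-values were adjusted by Benjamini-Hochberg over all genes tested, at a threshold of 0.05. RPKM times transcript length fell on whole multiples (tolerance 0.1, checked below 100 reads), so reads per library could be read back for limma voom.

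The members and lists were chosen with earlier results of these data known. Genes named with values in every comparison were Irf7, Irf9, Stat2, Irf1, Isg15, Ifit1, Ifit3, Mx1, Oasl2, Usp18, Bst2, Ifi27l2a, Ifitm3, Gbp2 and Zbp1. To these were added up to 10 called members of smallest p, up to 5 called against the majority, and up to 4 called genes per related list. Files were read with Python 3.11.15, pandas 2.3.3 and numpy 2.4.6. The fit was tested on simulated data with known changes. Alternatives changed the scaling, pseudocount, filter, block, test, libraries in the fit and left-out libraries; averaging libraries with the same header number and crossing the culture numbers were added after seeing the data. Of the genes that were to be named with values, 1 is not reported here.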

Additional observations from a re-analysis of the deposited data

Results flagged for a closer look

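In knockout-labelled lymph node Th2 cells, replicate 4 stood far above the other 3 libraries for 3 of the 33 members checked. Chance puts a library this far out in about 1 in 20 groups, and members that vary together by library are not independent. Among genes at 1 or more in all 4 libraries, replicate 4 stood this far above for 3 of 30 members and for 46 of 10288 genes (0.447%), and any library this far out was found in 6.28% of genes. Isg15 was 15.5 in replicate 4 and 7.74 in the nearest library, a gap of 0.838 of the range of the group. Ifi27l2a was 962 against 607 in the nearest (0.907 of the range), and Trim25 was 21.5 against 17 (0.864 of the range). Each gap was past Dixon's 95% critical value for 4 samples. The same library was the highest of its group for 23 of 30 members.

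The knockout effect on Isg20, an RNA exonuclease gene, was higher in the lymph node than in culture by 1.23 on the log2 scale (limma test of the difference, adjusted p = 0.0255, and 0.0113 to 0.127 over 16 alternatives). All 4 knockout-labelled lymph node libraries were above all 3 wild-type ones, and both knockout-labelled cultures were below both wild-type cultures.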

How the results depend on the processing

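No member past the threshold changed direction under the alternatives tried. Some differences that did not pass did, such as Irf1 (-0.06 at the lowest) and Oas3 (-0.03) in the airway and Gbp2 in culture (0.02 at the highest). In the airway comparison 19 members rose as reported, 10 with a pseudocount of 0.1, 3 with no filter on low values, 7 with limma voom and 4 to 15 when 1 library was left out. In the lymph node knockout comparison 8 rose and 4 fell as reported; with no filter 4 rose and 2 fell, and with 1 library left out 3 to 10 rose and 1 to 4 fell. Averaging libraries with the same header number, chosen after seeing the data, gave 10 and 4. For the difference of the knockout effects, 1 member passed as higher as reported, 0 with no filter, 2 with voom and 0 to 3 with 1 library left out; 0 to 1 passed as lower. Knockout-labelled lymph node against culture gave 1 to 4 higher and 2 to 10 lower with 1 library left out, and wild-type gave 2 to 3 and 10 to 15. Leaving out a culture library leaves 1, which is assumed to vary like the other group. With the replicate number as a block, 3 members rose in the knockout comparison, and for the difference of effects 0 passed as higher and 1 as lower. Same-numbered libraries did not deviate together between airway and node (correlations of 0, 0.01 and 0.01) or between the node genotypes (-0.03, -0.41 and -0.48). The numbers were therefore not taken as pairing. Differently numbered libraries of the node genotypes ran from -0.61 to 0.66. Knockout-labelled replicate 2 with wild-type replicate 3 stood at 0.66, and replicate 1 with wild-type replicate 2 at 0.6. What these libraries share was not tested, and the main fits do not model it. Between node and culture, same-numbered libraries stood at -0.1 and 0.45 in wild-type and at 0.13 and 0.13 in knockout-labelled cells. Between the culture genotypes they stood at -0.23 and -0.23. With 2 libraries a group, deviations from the group mean mirror each other, so these equal culture values are 1 observation. Crossing the culture numbers, added after seeing the data, gave 0 calls among members in either direction. Depth of 16.3 to 27.5 megareads limits the members near 0, such as Ifi44, Ifit3 and Oasl2.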
